A study of Mus musculus with 6 samples.

Results

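The genes examined here encode the nuclear end of the Hippo pathway: the coactivators YAP (*Yap1*) and TAZ (*Wwtr1*), the 4 TEAD DNA-binding proteins (*Tead1* to *Tead4*) and the LATS kinases (*Lats1*, *Lats2*). Accessible chromatin was assigned to them from 1 conservative peak list for parent neural stem/progenitor cells (NSPCs) and 1 for ΔSRR2–18 NSPCs, which lack a cluster of *Sox2* enhancers on both alleles. A distinct interval of a list was counted as a member when its strongest summit, the one with the highest fold enrichment over local background, had 1 of the 8 genes as its nearest protein-coding transcription start site (TSS), at most 50 kb away. The rule takes the summit by its fold enrichment and the gene by position, and uses no comparison between the genotypes. It chose 54 of 82885 parent intervals and 59 of 107480 ΔSRR2–18 intervals, 113 of 190365 in all. The farthest members lay at *Tead1*, 48.1 kb from a TSS in both lists. Beyond the limit were 13 parent intervals, the nearest 56.7 kb from *Tead1* at a fold enrichment of 9.95, and 18 ΔSRR2–18 intervals, the nearest 51.4 kb from *Yap1* at 10.9.

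ATAC-seq maps open chromatin by the insertion of sequencing adapters into accessible DNA. Nuclei came from 3 cultures of each line, with 30000 cells per culture and 50 to 60 M reads per sample by the sample labels. Both lines are F1 hybrids (129S1/Cast) derived from embryonic stem cells with an mCherry reporter at *Sox2* on the 129 allele, kept in N2B27 medium with EGF and bFGF. The parent line has no deletion (clone 5B), whereas the deletion line is homozygous for loss of SRR2-18 (clone 47D), so each genotype is represented by 1 clone. The lists keep peaks that rank alike between replicates (IDR) and pool the 3 cultures of a genotype. The values below therefore carry no replicate error, and differences between parent and ΔSRR2–18 NSPCs are given without a test.

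In the Hippo pathway, the LATS kinases phosphorylate YAP and TAZ and hold them out of the nucleus. Unphosphorylated YAP and TAZ enter the nucleus, bind TEAD proteins, which recognize the sequence GGAATG, and activate genes for growth and survival together with AP-1 factors at many enhancers. In the neural tube, YAP and TEAD activity is known to favour the expansion of progenitors, and *Lats2* is itself a target that feeds back on YAP. TEAD2 is the family member known for high expression in early embryonic neural tissue.

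The peak caller's fold enrichment and −log10 p were solved for the height of the read pileup at each summit. The lowest local background was 38.8 in the parent list and 19.7 in the ΔSRR2–18 list, a ratio of 1.98, so the parent libraries were the deeper ones by this measure. A pileup was therefore divided by its own list's lowest background before the lists were compared, and is called the scaled pileup. Promoters of all 8 NSPC marker genes (*Sox2*, *Sox1*, *Nes*, *Pax6*, *Fabp7*, *Vim*, *Hes5*, *Msi1*) held an interval in both lists, at scaled pileups of 47.2 to 158 in the parent list and 12.1 to 102 in the ΔSRR2–18 list. None of 3 pluripotency promoters (*Pou5f1*, *Nanog*, *Zfp42*) did in either list. Epithelial promoters were open at 1 of 4 genes in parent NSPCs, *Cdh1* at 4.07, and at 3 of 4 in ΔSRR2–18 NSPCs at 16.7 to 43.1, with *Krt18* absent from both. Mesodermal or mesenchymal promoters were open at 3 of 6 genes in parent NSPCs (42.5 to 73.4) and at 5 of 6 in ΔSRR2–18 NSPCs (11.4 to 85.5), with *T* absent from both. Whether a different mix of cells contributes to the results below was not tested, and in pooled cultures more cells with an open site and wider opening per cell cannot be told apart.

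The intervals found in 1 list alone are best seen through their sequences. For each of 7 such intervals, 121 bases of mm10 (GRCm38.p6, forward strand) centred on the strongest summit are shown with exact matches to TEAD (GGAATG), AP-1 (TGANTCA) or SOX (ACAANGG) on either strand in capitals. The first 4 are the strongest ΔSRR2–18 interval without a parent counterpart at each of *Wwtr1*, *Yap1*, *Tead1* and *Tead3*, and the last 3 are the strongest parent interval without a ΔSRR2–18 counterpart at *Tead1*, *Tead4* and *Lats2*. They were picked because they hold a match and do not stand for all such intervals: the strongest deletion-only interval of *Tead4* and the strongest parent-only ones of *Yap1* and *Tead3* had none in their 121 bases, and 7 of 27 deletion-only and 14 of 22 parent-only member intervals had none within 100 bp of the summit. The strongest parent-only interval of *Wwtr1*, which holds a SOX match, is not shown.
Wwtr1, deletion-only, chr3:57612712-57612832: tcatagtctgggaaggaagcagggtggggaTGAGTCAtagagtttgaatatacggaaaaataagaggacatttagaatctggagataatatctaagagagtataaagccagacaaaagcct
Yap1, deletion-only, chr9:8019191-8019311: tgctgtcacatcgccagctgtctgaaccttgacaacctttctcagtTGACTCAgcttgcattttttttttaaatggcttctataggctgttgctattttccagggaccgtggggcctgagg
Tead1, deletion-only, chr7:112633795-112633915: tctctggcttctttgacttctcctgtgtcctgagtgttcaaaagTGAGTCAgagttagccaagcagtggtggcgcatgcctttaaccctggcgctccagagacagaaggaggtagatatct
Tead3, deletion-only, chr17:28340672-28340792: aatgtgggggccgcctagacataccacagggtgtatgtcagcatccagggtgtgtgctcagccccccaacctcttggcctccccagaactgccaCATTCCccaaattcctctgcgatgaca
Tead1, parent-only, chr7:112753531-112753651: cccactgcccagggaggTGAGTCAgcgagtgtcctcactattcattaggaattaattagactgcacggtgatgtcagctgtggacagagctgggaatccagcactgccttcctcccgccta
Tead4, parent-only, chr6:128250728-128250848: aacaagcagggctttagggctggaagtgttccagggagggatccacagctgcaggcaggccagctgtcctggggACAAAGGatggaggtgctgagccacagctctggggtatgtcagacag
Lats2, parent-only, chr14:57702008-57702128: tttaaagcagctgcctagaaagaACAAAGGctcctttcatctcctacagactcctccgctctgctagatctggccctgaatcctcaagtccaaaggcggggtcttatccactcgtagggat

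The *Wwtr1*, *Yap1* and *Tead1* sequences from ΔSRR2–18 NSPCs each carry an AP-1 match that begins 30, 14 and 16 bases before the summit (offsets of -30, -14 and -16). The *Tead3* sequence carries the TEAD match, on the reverse strand, 34 bases after the summit. Of the parent sequences, *Tead1* has an AP-1 match at -43, and *Tead4* and *Lats2* have SOX matches at 14 and -37. An eighth sequence, chosen after its values were seen because AP-1 and TEAD matches lie close together in it, belongs to the ΔSRR2–18 interval in the *Tead4* intron with the second highest fold enrichment of the 5 found there in that list alone.
Tead4, deletion-only, chr6:128285879-128285999: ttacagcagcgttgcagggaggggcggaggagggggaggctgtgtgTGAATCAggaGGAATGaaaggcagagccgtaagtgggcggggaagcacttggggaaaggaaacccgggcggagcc
Its AP-1 match begins at -14 and its TEAD match at -4 from the summit. Both matches within 100 bp of the summit were found in 3 of 27 deletion-only member intervals. Of all deletion-only intervals 10.0% had both, so the pairing is not particular to these genes.

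Of the member intervals, 32 in each list overlapped an interval of the other list by at least 1 bp and are called shared. The remaining 22 of 54 parent intervals (40.7%) were parent-only and 27 of 59 ΔSRR2–18 intervals (45.8%) were deletion-only. Over all intervals of the lists, 52.3% of parent and 63.1% of ΔSRR2–18 intervals stood in 1 list alone, and over those within 50 kb of a protein-coding TSS, 45.0% and 53.0% did. Both member shares were below these levels but near those within 50 kb, and the difference was not tested. The balance differed between the genes, and at some it turned with the processing. *Wwtr1* had more deletion-only than parent-only intervals and *Lats2* the reverse. *Yap1* had 1 parent-only and 5 deletion-only, but 1 and 0 with TSSs of any gene type, and *Tead1* had 12 and 9, but 12 and 13 in the optimal lists, the authors' less strict version.

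**Figure D1:**
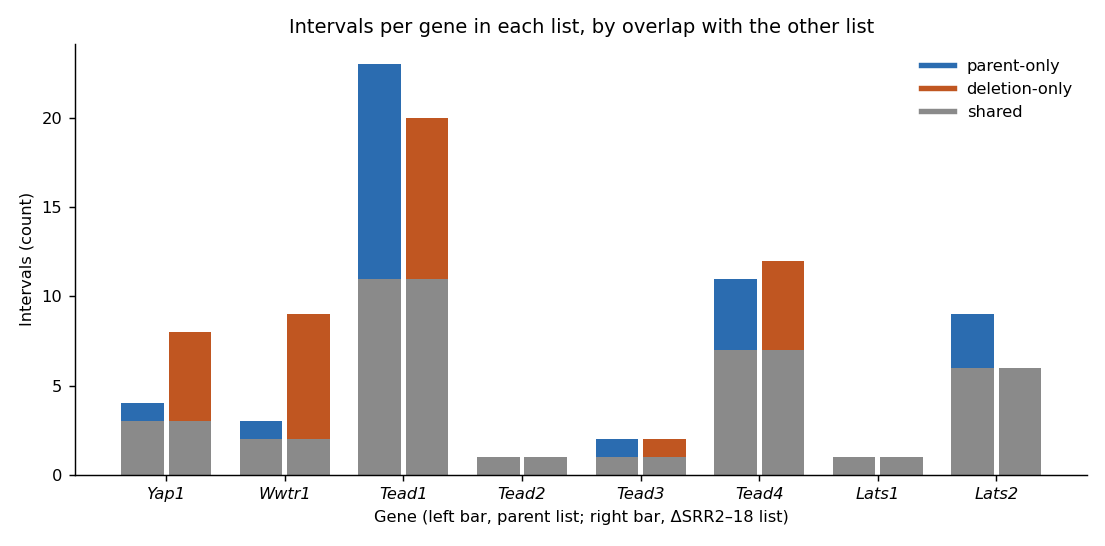
Number of intervals per gene in the parent list (left bars) and the ΔSRR2–18 list (right bars), split into shared (grey), parent-only (blue) and deletion-only (orange). *Wwtr1* holds 3 parent and 9 ΔSRR2–18 intervals and *Yap1* 4 and 8, whereas *Lats2* holds 9 and 6 with no deletion-only interval.

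At the 2 coactivator genes the ΔSRR2–18 set was larger than the parent set, as it was at *Tead4* with 12 against 11. *Wwtr1* (ENSMUSG00000027803.14, reverse strand of chromosome 3, 57455649 to 57575910) held 3 parent intervals, of which 1 was parent-only, and 9 ΔSRR2–18 intervals, of which 7 were deletion-only. As many deletion-only intervals were found at 4.17% of 21911 protein-coding genes, and a surplus of deletion-only over parent-only as high as the 6 of *Wwtr1* at 2.88%. Such shares of genes, here and below, include genes with no interval, as 17643 had any. They also do not allow for the length of DNA nearest to each gene. The strongest of the 7, chr3:57612401-57613045, lay 36.9 kb upstream of the TSS in an intron of *Gm26671*. Its fold enrichment of 29.0 ranked in the top 0.538% of the ΔSRR2–18 list, and its pileup of 632 stood over a local background of 20.8. The other 6 were all in *Wwtr1* introns, 12011 to 32589 bp downstream of the TSS, with fold enrichments of 3.45 to 11.3. The parent-only interval at *Wwtr1*, chr3:57562845-57563426, was weak in its own list, with a fold enrichment of 4.84 that placed it in the top 84.8%.

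*Yap1* (ENSMUSG00000053110.13, reverse strand of chromosome 9, 7931999 to 8004596) held 4 parent and 8 ΔSRR2–18 intervals, with 1 parent-only and 5 deletion-only. As many deletion-only intervals were found at 9.50% of protein-coding genes. The deletion-only count was 3 under a stricter IDR and with lists of equal length, and the parent-only count was 3 in the optimal lists. The strongest, chr9:8018764-8019446, lay 14.7 kb upstream of the TSS between genes, with a fold enrichment of 10.4 and a pileup of 214. The other 4 were 20.7 to 38.7 kb downstream of the TSS, with fold enrichments of 3.79 to 9.50. All 5 were near or below the middle of their list, with the highest in the top 50.1% by fold enrichment. The parent-only interval, chr9:7994277-7994584, was 10.1 kb downstream of the TSS in an intron, with a fold enrichment of 8.23. Counted over the whole gene body with no limit on distance, *Wwtr1* held 5 parent and 15 ΔSRR2–18 intervals and *Yap1* held 4 and 9. Within 10 kb of the TSS neither gene had a genotype-specific interval in either list, and with TSSs of noncoding genes also allowed as nearest, the deletion-only counts were 3 for *Wwtr1* and 0 for *Yap1*.

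**Figure D2:**
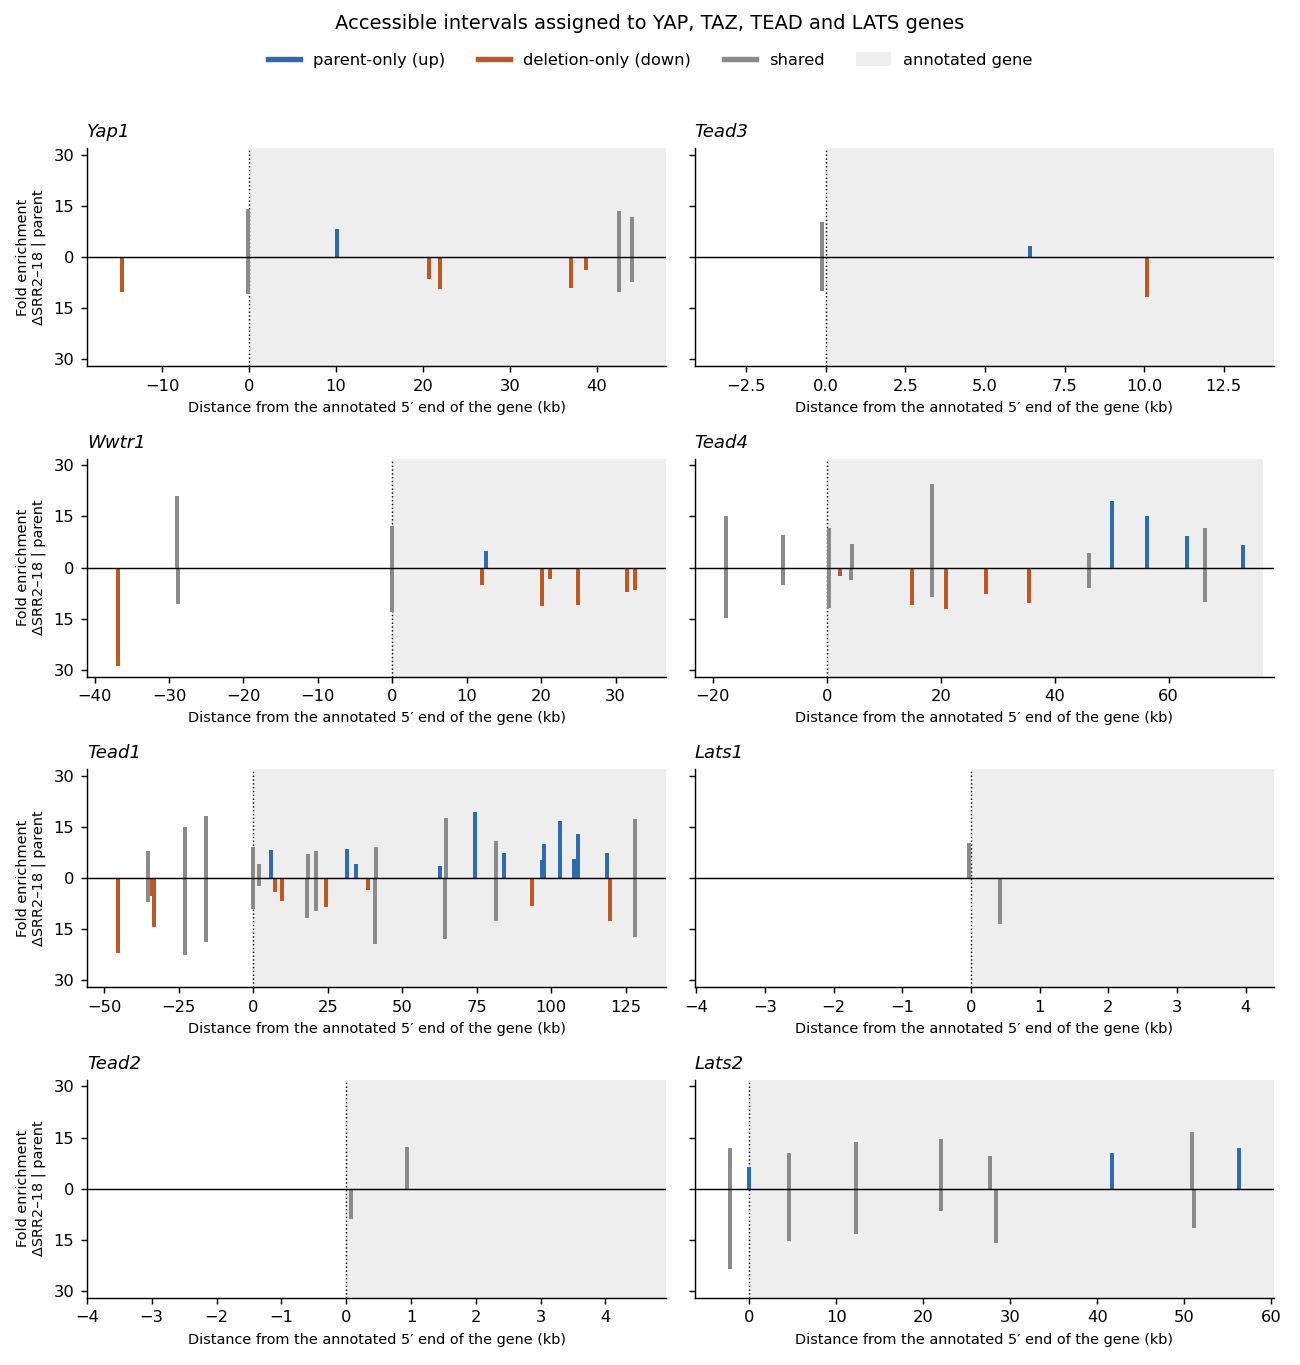
Position of each member interval's strongest summit, in kb from the annotated 5′ end of its gene, against its fold enrichment in its own list (parent upward, ΔSRR2–18 downward). Blue bars are parent-only, orange bars are deletion-only, grey bars are shared, shading marks the annotated gene, and the tallest orange bar is the *Wwtr1* interval at 29.0. Fold enrichments are not on a common scale between the lists.

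*Tead1*, the TEAD gene with the most accessible intervals, had 23 in the parent list and 20 in the ΔSRR2–18 list. *Tead1* (ENSMUSG00000055320.17, forward strand of chromosome 7, 112679318 to 112906807) had 11 shared intervals in each, 12 parent-only and 9 deletion-only. As many parent-only intervals were found at 0.424% of protein-coding genes, as many deletion-only ones at 1.96% and as many intervals in all at 0.210%, whereas a balance of -3 (deletion-only minus parent-only) or lower was found at 5.52%. With TSSs of any gene type *Tead1* had 2 deletion-only and 9 parent-only intervals, and within 10 kb of a TSS it had 2 and 4. With lists of equal length it had 6 and 13. The stretch of DNA closer to a *Tead1* TSS than to any other coding TSS and within 50 kb of it spans 180 kb, the longest of the 8 genes, and held 12.8 parent and 11.1 ΔSRR2–18 intervals per 100 kb. Over all coding genes the same measure gave 4.70 and 5.52. The strongest parent-only interval, chr7:112753235-112754011, lay in an intron with a fold enrichment of 19.5 and a pileup of 1010. The strongest deletion-only interval, chr7:112633254-112634170, lay 45.5 kb upstream in an intron of *2310014F06Rik*, with a fold enrichment of 22.1 (top 7.35%) and a pileup of 455. The parent-only set extended through the gene body, and 36 parent against 22 ΔSRR2–18 intervals fell within the whole annotated gene.

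*Tead1* also had the only genotype-specific promoter interval of the 8 genes, with promoters taken as within 1 kb of a TSS. At 2.5 kb the deletion-only *Tead4* interval chr6:128298341-128298607, 2.35 kb from a TSS, would count as well. The parent-only interval chr7:112741799-112742232 covered the TSS of the internal transcript ENSMUST00000164363.7, with its summit 35 bp upstream. Its fold enrichment was 3.47 (top 95.3%) and its pileup 452 over a local background of 130. No ΔSRR2–18 summit lay within 1 kb of that TSS.

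*Tead4* (ENSMUSG00000030353.15, chromosome 6), known for its role in the trophectoderm, had 11 parent and 12 ΔSRR2–18 intervals, 4 of them parent-only and 5 deletion-only. The 4 parent-only intervals all lay 24.8 to 47.9 kb downstream of an internal TSS at 128275577, and 50.0 to 73.1 kb from the annotated 5′ end. The strongest, chr6:128250433-128251042, had a fold enrichment of 19.6 and a pileup of 1325. The deletion-only intervals were nearer, 2.35 to 10.4 kb from a TSS, with chr6:128279127-128280124 the strongest at a fold enrichment of 12.1 and a pileup of 1180. The 2 sets therefore occupied separate stretches of *Tead4*. Which set was the larger turned with the processing: parent-only and deletion-only intervals numbered 5 and 4 in the optimal lists, 5 and 5 under a stricter IDR, and 7 and 4 with the longer list cut to the length of the shorter by fold enrichment. With TSSs of any gene type they numbered 1 and 4.

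*Tead3* (ENSMUSG00000002249.21, chromosome 17) had 1 shared promoter interval, 1 weak parent-only interval at a fold enrichment of 3.21 and 1 deletion-only interval, chr17:28340359-28341589, at 11.6 with a pileup of 1087. *Tead2* (ENSMUSG00000030796.17, chromosome 7) had its promoter interval alone in both lists. Its nearest coding neighbour, *Dkkl1*, starts 3.63 kb away, which leaves 14.1 kb of DNA nearest to *Tead2*.

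The kinase genes showed no deletion-only interval in the conservative lists at the 1 bp overlap. *Lats2* had 1 in the optimal lists and 1 with a reciprocal overlap of 50% required. At least 1 deletion-only interval was found at 54.7% of 21911 protein-coding genes, so its absence is common over that set. Only 17643 of them had any interval, and genes with as many intervals as *Lats2* were not looked at apart. *Lats1* (ENSMUSG00000040021.13, chromosome 10) had a promoter interval alone in each list. *Lats2* (ENSMUSG00000021959.16, reverse strand of chromosome 14, 57689662 to 57758388) had 9 parent intervals, 6 of them shared and 3 parent-only, and 6 ΔSRR2–18 intervals, all shared. As many parent-only intervals were found at 15.3% of protein-coding genes, and a balance of -3 or lower at 5.52%. The strongest parent-only interval, chr14:57701874-57702460, lay in an intron at a fold enrichment of 11.9 and a pileup of 512. Another, chr14:57758209-57758639, had its summit 40 bp upstream of the annotated 5′ end of *Lats2*, at a fold enrichment of 6.39. No transcript of the basic annotation starts there, so it was not counted as a promoter interval. The overlapping coding gene *Gm49361* has a TSS 2 bp from one of *Lats2*, and no interval was assigned to it.

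The promoters of all 8 genes were open in both genotypes. With a promoter interval defined by a summit within 1 kb of a TSS of the basic annotation, the parent list held 9, which includes the internal *Tead1* one, and the ΔSRR2–18 list held 8. The highest scaled pileup was that of *Wwtr1*, with a pileup of 5521 in the parent list (142 times the background) and 1910 in the ΔSRR2–18 list (97.2 times). *Tead4* was next at 117 and 88.9. *Yap1* stood at 98.7 and 59.1, *Lats2* at 89.4 and 63.4, *Tead3* at 84.1 and 68.1, *Tead1* at 83.3 and 63.2, and *Lats1* at 63.3 and 59.3. *Tead2* was lowest in both lists at 56.8 and 24.7. The ΔSRR2–18 value was the lower one at each of the 8 promoters, but with the median of all shared regions set to 1 *Lats1* turned to a log2 ratio of 0.14 and *Tead3* stood at -0.07. Before that centring the ΔSRR2–18 value was also the lower one at 84.1% of the 12545 shared promoter regions of the genome, whose median log2 ratio of scaled pileup (ΔSRR2–18 over parent) was -0.47 against -0.45 for the 8. *Tead2* alone passed 2-fold, at a log2 ratio of -1.20, but stood at -0.97 and short of 2-fold with the median of all shared regions set to 1. Its ratio ranked at percentile 11.8 of all shared regions, and 13.3% of all shared promoter regions were at least 2-fold lower. Other shared regions within 2 Mb of *Tead2* had a median log2 ratio of -0.38.

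Away from promoters the shared regions went both ways. Of the 24 member regions there, 5 had a scaled pileup at least 2-fold higher in ΔSRR2–18 NSPCs and 6 at least 2-fold lower. Of the 26527 such regions of the genome, 21.4% and 17.2% did. The median log2 ratio was -0.19 for the 24 and -0.006 for the 26527. With promoters included, 5 of the 32 shared member regions were at least 2-fold higher and 7 at least 2-fold lower. Of all 39072 shared regions of the genome, 15.8% and 16.0% were. The median log2 ratio was then -0.40 for the members and -0.24 for all shared regions. With the median of all shared regions set to 1 the balance turned, with 7 member regions at least 2-fold higher and 4 at least 2-fold lower, against 19.2% and 11.3% of the shared regions of the genome.

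The 5 higher regions lay at *Lats2* and *Tead1*. At *Lats2*, chr14:57760253-57761313, which lies upstream of the annotated gene, had a pileup of 553 in the parent list (scaled 14.2) and 2023 in the ΔSRR2–18 list (scaled 103), a 7.23-fold ratio at percentile 97.6. A *Lats2* intron region, chr14:57729692-57731087, had a ratio of 2.75, while chr14:57736145-57736900, also in an intron, was the lowest of all members with pileups of 1266 and 167 and a ratio of 0.261. The *Lats2* regions therefore included the highest and the lowest ratio of the 32. Other shared regions within 2 Mb of *Lats2* had a median log2 ratio of -0.21.

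At *Tead1*, 3 intron regions in the 5′ part of the gene stood higher in ΔSRR2–18 NSPCs. The highest, chr7:112719997-112721121, had pileups of 1050 and 2686 (scaled 27.0 and 137, ratio 5.05), followed by chr7:112696891-112698038 at a ratio of 3.35 and chr7:112700021-112700560 at 2.73. Farther into the gene, chr7:112760393-112761246 and chr7:112806912-112807796 stood lower, at ratios of 0.470 and 0.444, as did chr7:112680852-112681250 beside the promoter at 0.371, the lowest of the gene. The median log2 ratio of other shared regions within 2 Mb was 0.08.

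At *Tead4* the lowest ratio was 0.357, at chr6:128295977-128296857, with pileups of 2776 and 501, and the highest was 0.994, at chr6:128318227-128319038. At *Wwtr1* the region 28.9 kb upstream, chr3:57604339-57605177, had pileups of 1332 and 218 and a ratio of 0.323. The strongest deletion-only interval of the gene, at a fold enrichment of 29.0, lies farther upstream of it. At *Yap1* the ratios were 0.516 and 0.702 for the intron regions chr9:7960219-7960772 and chr9:7961280-7962245, and 0.599 for the promoter.

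**Figure D3:**
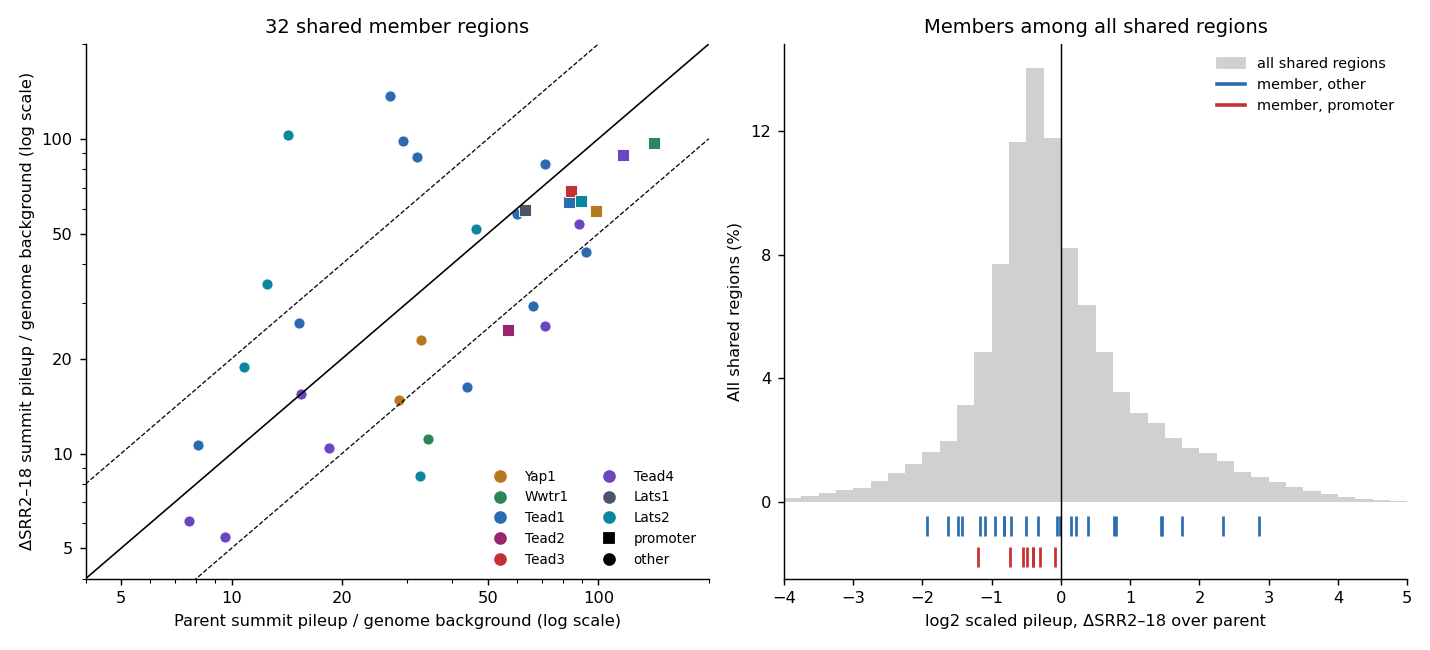
Left, scaled pileup (summit pileup over the genome background, log scales) of the 32 shared member regions in parent and ΔSRR2–18 NSPCs, with squares for promoters, the diagonal as a solid line and 2-fold differences as dashed lines. Right, the log2 ratio of all 39072 shared regions in percent per bin (grey), with member promoters (red) and other member regions (blue) as ticks: all 8 promoters lie below 0 on this scale (*Lats1* turns to 0.14 with the median of all shared regions set to 1), and the other regions run from a *Lats2* region at -1.94 to another at 2.85.

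Motif matches within 100 bp of the strongest summit differed between the classes of member intervals along the lines of the whole lists. An AP-1 match was found in 17 of 27 deletion-only member intervals (63.0%, 95% Wilson interval 44.2–78.5) and in 1 of 22 parent-only ones (4.55%, 0.807–21.8). Over all intervals these shares were 50.7% and 4.59%, and in flanks 500 bp away 6.58% and 5.65%. The 17 were 5 of 7 at *Wwtr1*, 4 of 5 at *Yap1*, 5 of 9 at *Tead1*, 3 of 5 at *Tead4* and 0 of 1 at *Tead3*. SOX matches went the other way, with 5 of 22 parent-only (22.7%) and 2 of 27 deletion-only (7.41%) member intervals, against 18.8% and 9.29% of all intervals of those classes. TEAD matches were found in 6 of 27 deletion-only (22.2%) and 3 of 22 parent-only (13.6%) member intervals, close to the 24.2% and 17.4% of all such intervals. Intervals at the same gene share a locus and the Wilson intervals cover counting error only.

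The shared member intervals were where TEAD matches stood above the lists. GGAATG on either strand was found in 13 of 32 shared parent intervals (40.6%, 25.5–57.7) and 15 of 32 shared ΔSRR2–18 intervals (46.9%, 30.9–63.6), against 15.8% and 16.9% of all shared intervals. With a window of 50 bp it was found in 9 of 32 in each list (28.1%), against 8.88% and 10.3%. The shared intervals of the 2 lists cover the same 32 regions, so their shares are not separate observations. Away from promoters, 8 and 9 of the 24 had a match (33.3% and 37.5%), where all shared intervals away from promoters had 19.8% and 21.2%. The gap was smaller there than at promoters, and both rest on small counts. The 8 in the parent list were 4 of 10 at *Tead1*, 2 of 5 at *Lats2* and 2 of 6 at *Tead4*. The 9 in the ΔSRR2–18 list were 5 of 10, 2 of 5 and 1 of 6 at these genes and 1 of 2 at *Yap1*. At promoters, 5 of 8 parent and 6 of 8 ΔSRR2–18 intervals had one, where all shared promoter intervals had 7.21% and 7.74%.

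**Figure D4:**
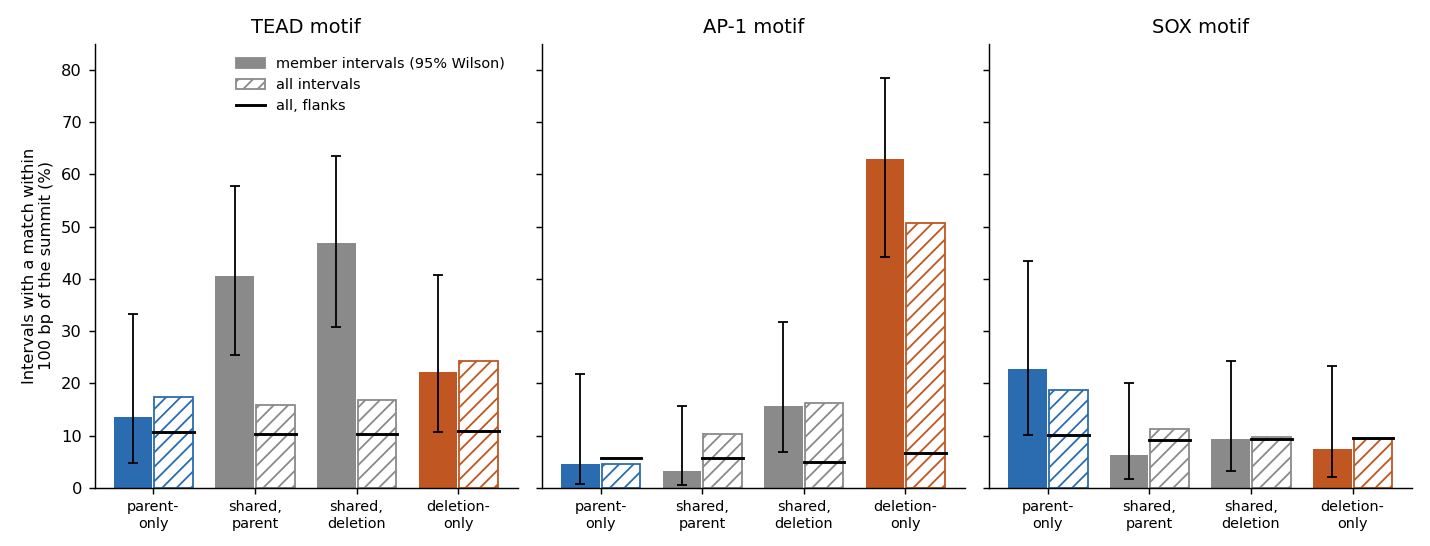
Share of intervals with an exact match within 100 bp of the strongest summit, for member intervals (solid bars, 95% Wilson intervals) and all intervals of the same class (hatched bars), with the share of all intervals in flanks 500 bp away as black lines. TEAD matches stand at 40.6% and 46.9% of shared member intervals, and AP-1 matches at 63.0% of deletion-only ones.

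The promoter matches are shown because the TEAD sequence lies beside the start sites of TEAD genes and of their partners. They were chosen after the matches were seen, and only promoters with a match are shown. Each line gives 30 bases of the mm10 forward strand with the matches in capitals (GGAATG, or CATTCC where the match is on the other strand).
Tead1, chr7:112679331-112679360: tggcgttcatttCATTCCtgtcctCATTCC
Tead3, chr17:28350970-28350999: tcccgcgcacccCATTCCtcgctcgtcgtc
Tead4, chr6:128300454-128300483: gcaGGAATGcacGGAATGggcgctGGAATG
Yap1, chr9:8004720-8004749: tgcgcgtcgctaCATTCCtgcagactcccg
Wwtr1, chr3:57576029-57576058: agcgcctatctgCATTCCtttgagtttacc
Lats2, chr14:57746102-57746131: ctacattgttggCATTCCacgggcgtcacg

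*Tead4* holds 3 matches in these 30 bases and *Tead1* holds 2. Their sites and that of *Lats2* lie in the annotated 5′ untranslated region, while those of *Tead3*, *Yap1* and *Wwtr1* lie 168, 139 and 134 bp upstream of the nearest TSS (positions -168, -139 and -134). The *Wwtr1* site is within 100 bp of the ΔSRR2–18 summit and not of the parent one. The promoter intervals of *Tead2* and *Lats1* had no match in this window in either list. In RefSeq promoter windows of GRCm38.p6 (300 bases around each start), GGAATG on either strand was found for 4 of the 6 members with a window (*Lats2*, *Tead3*, *Wwtr1*, *Yap1*) and for 16.6% of 27025 genes. *Tead1* and *Tead4* had no window there. A match is a description of the sequence, and binding was not measured.

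The wider pathway was read from a list of 37 genes, which holds upstream kinases, scaffolds, TEAD cofactors and targets and includes *Lats2* as a target. More deletion-only than parent-only intervals were found at 20 of the 37 (54.1%) and the reverse at 7 (18.9%), against 36.3% and 21.9% of all protein-coding genes. The median surplus of deletion-only over parent-only intervals was 1 for the 37 and 0 for all coding genes. Together the 37 had 162 deletion-only and 117 parent-only intervals, and all coding genes had 34301 and 24785, which is 1.38 deletion-only per parent-only interval. The totals of the 37 stand in about the same ratio, so they show no deletion-only excess over all coding genes. Genes with no interval at all count in neither share, and 17643 of the 21911 coding genes had any. Over those alone the shares of 36.3% and 21.9% would be higher. Of the 8 members, *Yap1*, *Wwtr1* and *Tead4* fell in the first class and *Tead1* and *Lats2* in the second, but in the optimal lists *Tead4* and *Tead1* changed places.

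The scaffolds and cofactors included the 4 largest surpluses. *Amotl1* and *Amot*, which encode angiomotin proteins that retain YAP at cell junctions, had 10 and 9 deletion-only intervals against 2 parent-only ones each. *Vgll3* and *Vgll2*, which encode TEAD cofactors of the vestigial-like family, had 8 and 6 deletion-only intervals and no parent-only one. The largest parent-only surpluses were at *Limd1*, a LIM-domain inhibitor of LATS, with 6 parent-only and 2 deletion-only, at *Lats2* with 3 and 0, at *Map4k4*, an upstream kinase, with 9 and 6, and at *Sav1*, the scaffold of the MST kinases, with 6 and 4. *Sav1* was tied with *Stk4* (3 and 1) and *Vgll4* (6 and 4) and was taken by symbol. Of the classical YAP targets, *Ccn1* had 8 of each and *Ccn2* had 4 parent-only and 6 deletion-only. By role, 8 of 17 kinase and upstream genes, 6 of 10 scaffolds and cofactors and 7 of 11 targets had more deletion-only intervals, and 4, 2 and 1 had more parent-only ones.

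**Figure D5:**
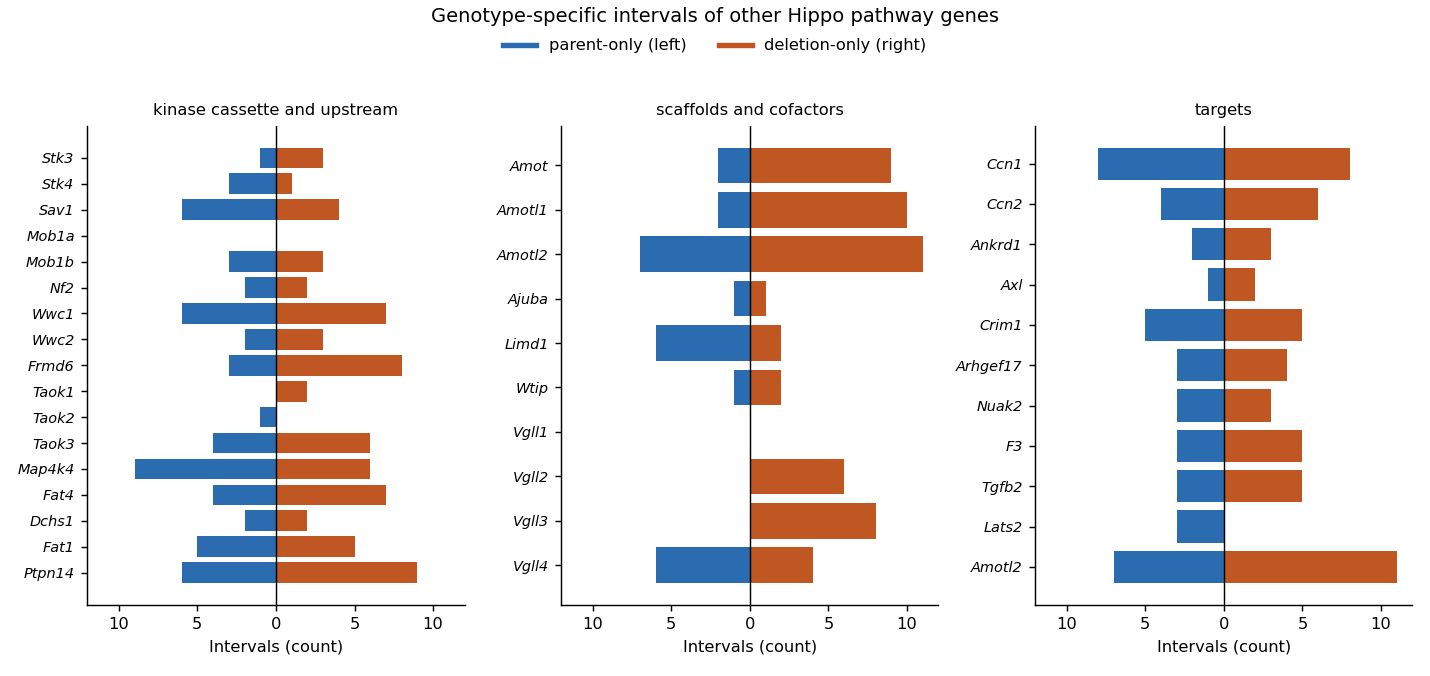
Number of parent-only (left, blue) and deletion-only (right, orange) intervals at each of the other Hippo pathway genes, grouped by role. *Amotl1* has 10 deletion-only against 2 parent-only intervals, *Vgll2* and *Vgll3* have deletion-only intervals alone, and *Ccn1* has 8 of each.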

How the data were processed

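The authors used the ENCODE pipeline to align ATAC-seq reads to mm10 and MACS2 to call peaks, with IDR over the 3 cultures per genotype. For each peak the deposited lists give a score (scaled IDR), a fold enrichment over local background as a ratio, a −log10 p and a summit position. Reads of the *M. castaneus* allele can map less often to mm10, and the lists do not separate alleles.

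Conservative lists were used. Pileups were solved from fold enrichment and −log10 p under the Poisson model of MACS2 and were whole within 0.05 for 99.9993% of parent and 100% of ΔSRR2–18 peaks. They are heights and not counts of distinct fragments. Nearest genes came from GENCODE M21 basic. Motifs were exact matches on either strand. Steps were tested on simulated data. Python 3.11.15 with numpy 2.4.6, scipy 1.17.1 and pandas 2.3.3 was used.

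Named at each gene were promoter intervals, the strongest genotype-specific interval of each list and the shared regions of highest and lowest ratio, and, of the other pathway genes, the 4 largest surpluses each way (ties by symbol) with *Ccn1* and *Ccn2*. Members and lists were chosen with earlier results of these data known. Alternatives were the optimal lists, merged intervals, a stricter IDR, lists of equal length, other distances, other overlap rules, a −log10 p minimum of 50 after parent pileups were multiplied by the ratio of the lists' lowest backgrounds, another motif window, intervals outside promoters and matched GC content.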

Additional observations from a re-analysis of the deposited data

How the results depend on the processing

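No paired analysis was possible because each list pools the 3 cultures of a genotype, and for the same reason single cultures could not be left out. Within 10 kb of a TSS, 22 parent and 23 ΔSRR2–18 member intervals were left, of which 5 were parent-only, 6 deletion-only and 17 shared in each list. With TSSs of any gene type there were 31 and 26, of which 15 were parent-only, 10 deletion-only and 16 shared in each list. Fewer intervals can qualify under both settings by construction. With the median of all shared regions set to 1, 4 member regions in place of 7 were at least 2-fold lower in ΔSRR2–18 NSPCs and 7 in place of 5 at least 2-fold higher, so the balance turned. A motif window of 50 bp gave a TEAD share of 28.1% of shared ΔSRR2–18 member intervals, a SOX share of 0% of the same intervals and an AP-1 share of 0% of shared parent ones. A promoter distance of 2.5 kb gave 13 promoter intervals in each list, and 10 kb in place of 50 kb left 50 deletion-only and 34 parent-only intervals at the other pathway genes. Of 104 values recomputed for the main counts and shares, 86 stayed within 1.5 times the count or inside the 95% Wilson interval of the share. Of 156 values for single genes and for all intervals, 129 did. Both tallies include merged intervals, where the lists stayed at 82885 and 107480 intervals, so those values could not move. The genotype-specific counts of *Tead2*, in the second tally, were 0 under every setting. Depth per culture is unknown, and an interval missing from a list may lie below its threshold.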
